A study of Mus musculus with 29 samples.

Results

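Cellular senescence is a lasting exit from the cell cycle, and the genes described here are 10 whose transcripts are commonly read when it is looked for in a tissue. They are the INK4 inhibitors of cyclin-dependent kinases Cdkn2a, Cdkn2b, Cdkn2c and Cdkn2d, the CIP/KIP inhibitors Cdkn1b and Cdkn1c, the B-type lamins Lmnb1 and Lmnb2, and the chromatin proteins Hmgb1 and Hmgb2. They were chosen by symbol from a list that left out Cdkn1a, and each was matched to its Ensembl identifier in a table of 56748 genes. The rule names genes and uses no measured value, but it was written with earlier results of these data known. Of the 10 genes, 8 had enough reads to be tested among 12353 genes, and Cdkn2a and Cdkn2b did not.

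The RNA came from the aortic arch of 29 mice, 1 library per mouse, after perfusion with saline. Ercc1 d/- mice carry a null and a hypomorphic allele of the DNA repair gene Ercc1 in all their cells, so the defect is not limited to the vessel wall, and WT littermates shared their F1 background of C57BL6J and FVB. AL-fed mice ate without limit and were killed at 6 weeks (5 WT, 5 Ercc1 d/-) or 22 weeks (5 WT, 4 Ercc1 d/-). Mice on dietary restriction (DR) were killed at 22 weeks (5 WT, 5 Ercc1 d/-) and had their food reduced from 7 weeks of age, reaching a reduction of 30% at 9 weeks. Every group held males and females. Sample 003, a 22-week AL-fed WT mouse with 400410 gene counts, was left out as the study did, which leaves 4 WT mice in that group. The other 28 libraries held 921167 to 9616382 gene counts, and at 22 weeks the Ercc1 d/- libraries were shallower than the WT ones (medians of 2392575 against 6212607 on AL and 1576566 against 5557760 on DR). Libraries 001 (6 weeks, WT) and 016 (22 weeks, Ercc1 d/-, DR) stood apart in their cell type markers. The genotype effects of Hmgb2 and Lmnb1 on DR are also given without 016. Other values in the groups of these libraries include them unless said otherwise, and some of those values change without them. Ercc1 itself was lower in the Ercc1 d/- mice in each of the 3 genotype comparisons, with log2 fold changes of -1.41 at 6 weeks, -0.97 at 22 weeks on AL and -1.01 on DR (largest edgeR adjusted p = 0.00274).

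The INK4 proteins bind the kinases that partner D-type cyclins and so keep RB proteins active, whereas CIP/KIP proteins bind cyclin-kinase complexes more broadly. Cdkn2a makes a pair of unrelated proteins, Ink4a and Arf, from separate first exons. B-type lamins form part of the meshwork under the inner nuclear membrane, and HMGB proteins bend DNA and loosen chromatin, with HMGB1 also acting as an alarm signal outside the cell. In cultured senescent cells, Cdkn2a is known to rise while Lmnb1 and Hmgb2 transcripts fall, and Lmnb1 and Hmgb2 are more abundant in dividing cells.

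Promoter sequences of the genes that changed, and of the start sites of Cdkn2a, are shown with letters that recur upstream of cell cycle genes. The windows are the 250 bases before the RefSeq start (build GRCm38.p6), 5′ to 3′ on the strand of the gene, and 8 of the 10 genes had at least 1 window. Capitals mark matches, on either strand, to 4 motifs, which do not overlap each other in any window of these genes. The CCAAT box (CCAAT) was present in 33.8% of all 32851 such windows, the cell cycle homology motif CHR (TTTGAA or TTCGAA) in 17.1%, the E2F motif (TTTCCCGC, TTTGGCGC, TTTCGCGC or TTTGCCGC) in 1.86% and the GC box (GGGCGG) in 32.7%.
Hmgb2 (chr8:57511593-57511842, plus strand): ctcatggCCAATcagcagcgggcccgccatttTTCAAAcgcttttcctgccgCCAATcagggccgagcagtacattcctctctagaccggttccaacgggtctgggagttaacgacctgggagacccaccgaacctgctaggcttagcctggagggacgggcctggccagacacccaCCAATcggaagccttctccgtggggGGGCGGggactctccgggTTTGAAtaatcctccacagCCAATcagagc
Cdkn2c, outer start (chr4:109666757-109667006, minus strand): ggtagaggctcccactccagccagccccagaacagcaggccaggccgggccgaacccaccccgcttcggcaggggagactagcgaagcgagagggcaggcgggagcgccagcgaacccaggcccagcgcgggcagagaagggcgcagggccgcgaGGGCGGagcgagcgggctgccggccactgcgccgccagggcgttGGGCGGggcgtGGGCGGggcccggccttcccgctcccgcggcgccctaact
Lmnb2, outer start (chr10:80918246-80918495, minus strand): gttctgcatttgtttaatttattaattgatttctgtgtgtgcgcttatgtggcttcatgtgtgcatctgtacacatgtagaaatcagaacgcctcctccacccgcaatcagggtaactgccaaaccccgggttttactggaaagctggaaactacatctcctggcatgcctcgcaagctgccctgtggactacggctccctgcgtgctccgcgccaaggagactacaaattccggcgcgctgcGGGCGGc
Cdkn2a, outer start (chr4:89294620-89294869, minus strand): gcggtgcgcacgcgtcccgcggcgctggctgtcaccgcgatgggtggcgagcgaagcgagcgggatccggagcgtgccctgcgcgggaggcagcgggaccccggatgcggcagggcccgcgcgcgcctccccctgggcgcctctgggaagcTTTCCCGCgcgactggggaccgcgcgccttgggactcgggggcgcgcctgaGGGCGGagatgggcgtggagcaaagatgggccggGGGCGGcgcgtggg
Cdkn2a, inner start (chr4:89282193-89282442, minus strand): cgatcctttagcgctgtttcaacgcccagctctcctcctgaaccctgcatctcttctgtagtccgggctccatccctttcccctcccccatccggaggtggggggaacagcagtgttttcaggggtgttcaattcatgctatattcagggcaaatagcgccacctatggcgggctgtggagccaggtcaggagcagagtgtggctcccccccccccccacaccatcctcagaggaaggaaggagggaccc
The Hmgb2 window held 4 CCAAT boxes, 2 CHR matches and 1 GC box. The Cdkn2c window held 3 GC boxes and the Lmnb2 window 1, and neither held a CCAAT, CHR or E2F match. The outer Cdkn2a window held 1 E2F match and 2 GC boxes, and the inner one held none of the 4 motifs. The inner starts of Cdkn2c and Lmnb2, not shown, held none of the 4 either. Other genes of the 10 held such letters too. Hmgb1 had 3 CCAAT boxes at its first start and 4 GC boxes at its second. Cdkn1b had 2 CCAAT boxes and 1 GC box, Cdkn2d 1 and 3, and Cdkn2b 1 CHR match. Such matches describe letters and were not tested for binding.

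Levels are given in CPM, the usual normalized count, in which the count of a gene is divided by the TMM-scaled total of its library and brought to a common library size. Between genes they were compared per kilobase of exon, since a longer transcript yields more reads, and the mean over the 28 mice then ran from 28.2 ± 2.04 CPM per kilobase for Hmgb1 through 24.9 ± 5.95 for Cdkn1c and 24.7 ± 3.02 for Cdkn1b to 8.20 ± 1.74 for Cdkn2d (SD, n = 28). Lmnb2 followed at 4.13 ± 0.707, Hmgb2 at 3.43 ± 1.57, Lmnb1 at 2.16 ± 0.838, Cdkn2c at 1.99 ± 0.643, Cdkn2b at 1.06 ± 0.638 and Cdkn2a at 0.135 ± 0.351 CPM per kilobase. Neighbours in this order overlapped in their ranges over the 28 mice, except Cdkn1b (19.8 to 32.6) and Cdkn2d (4.06 to 11.8). The methods describe counting over the whole gene body, and the order depends on the length used. Per kilobase of genomic span, Cdkn1b stood at 22.0 ± 2.69 CPM, Cdkn1c at 19.6 ± 4.68, Cdkn2d at 4.50 ± 0.953, Hmgb2 at 3.00 ± 1.37, Cdkn2c at 1.97 ± 0.636, Hmgb1, which spans 138.4 kilobases, at 1.38 ± 0.0998, Lmnb2 at 1.11 ± 0.19, Cdkn2b at 0.476 ± 0.286, Lmnb1 at 0.17 ± 0.0659 and Cdkn2a at 0.00784 ± 0.0204. Cdkn1a, the CIP/KIP inhibitor that the list left out, stood at 16.9 ± 10.9 CPM per kilobase of exon.

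**Figure D1:**
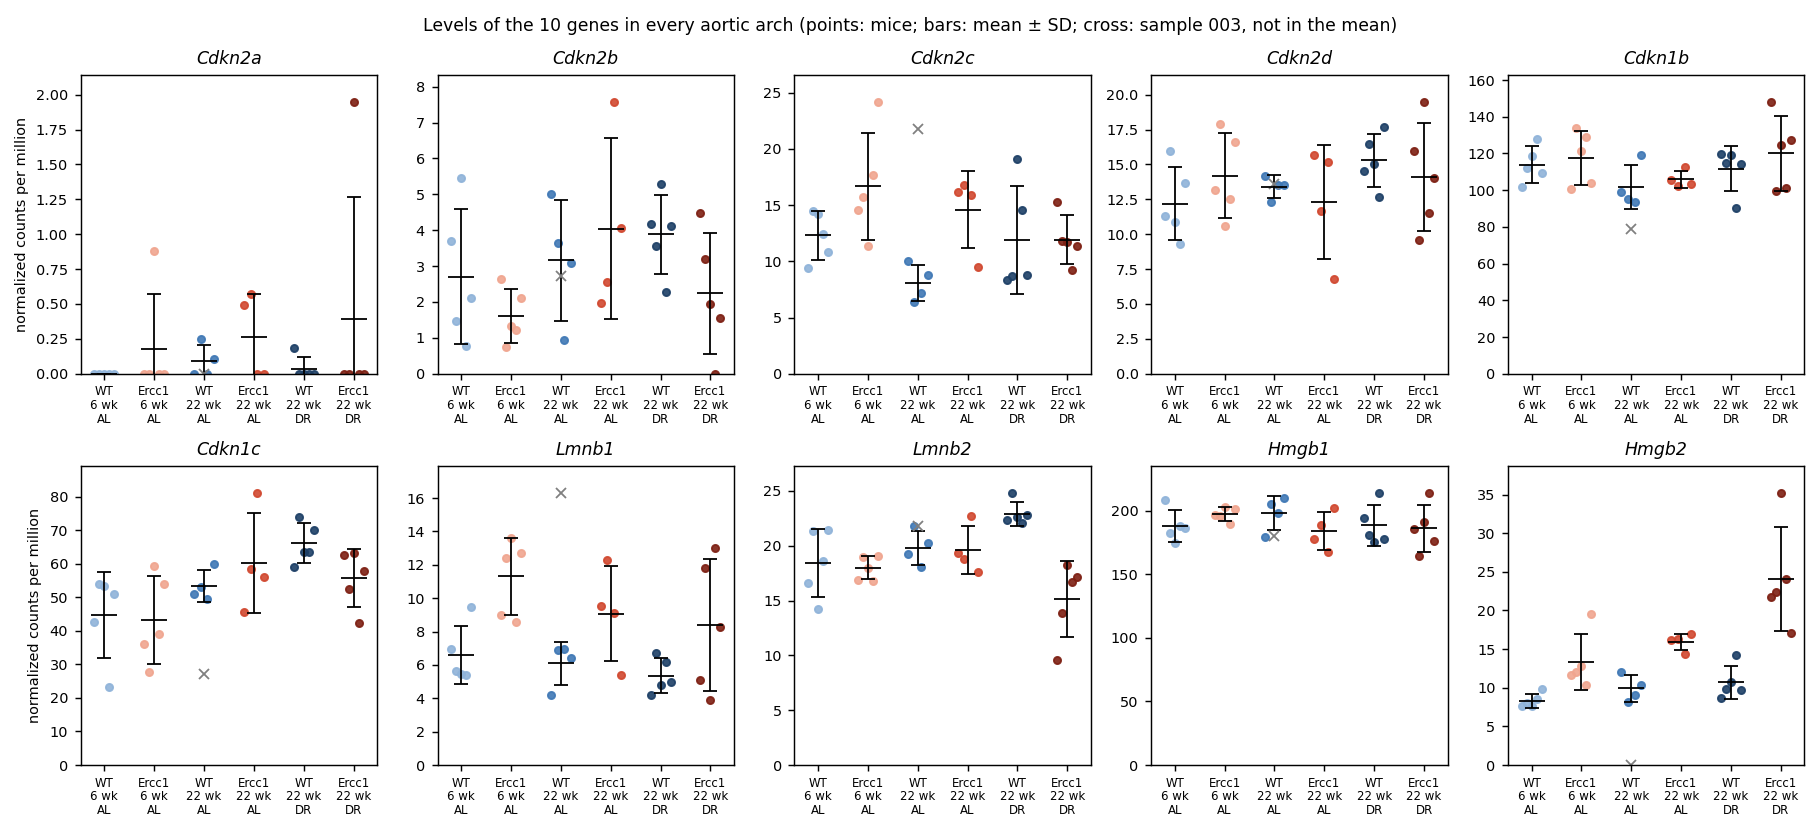
Normalized CPM of each of the 10 genes in the 6 groups, with 1 point per mouse, the mean ± SD as bars and sample 003 as a cross. Hmgb2 lies higher in every Ercc1 d/- group than in the WT group beside it, Lmnb2 is lowest in Ercc1 d/- mice on DR (9.58 to 18.2), and Cdkn2a is at 0 in 21 of the 28 mice.

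The first question is what loss of Ercc1 did to these genes at each age and diet. Hmgb2 was higher in Ercc1 d/- aortas at 22 weeks, 1.68-fold on AL and 2.29-fold on DR, Cdkn2c was 1.89-fold higher on AL, and Lmnb2 was 1.49-fold lower on DR. None of the 8 tested genes was called at 6 weeks. A gene was called when its Benjamini-Hochberg adjusted p over all 12353 genes was at most 0.05 and its change at least 1.2-fold (quasi-likelihood test of edgeR, adjusted for sex). By that rule 0 of 8 genes were called at 6 weeks (0 also by DESeq2, and 3 of 8 at an unadjusted p under 0.05) against 1.71% of all genes. At 22 weeks 2 of 8 were called on AL against 12.0% of all genes, and 2 of 8 on DR against 13.0%. The median log2 fold change of the 8 genes was 0.12 at 6 weeks, 0.11 on AL and -0.01 on DR, beside medians of 0.02, 0.03 and 0.00 over all genes. With every library thinned to 921167 counts, 0 of 8 genes were called in any of the 3 comparisons. Of all 12353 genes, thinning left 29 called at 6 weeks, 293 on AL and 288 on DR, against 211, 1486 and 1601 at full depth. In whole tissue such as this, fewer cells of a type and less RNA per cell cannot be told apart.

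**Figure D2:**
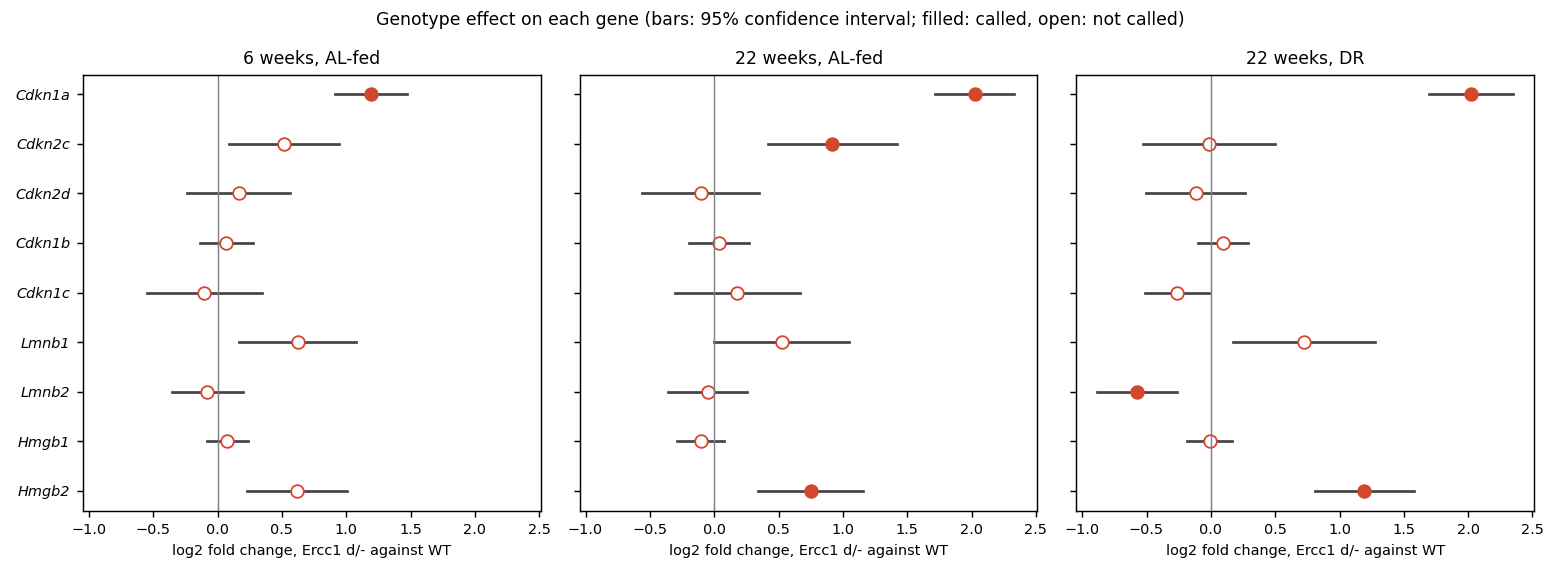
Log2 fold change of each tested gene, Ercc1 d/- against WT, with its 95% confidence interval, at 6 weeks, at 22 weeks on AL and at 22 weeks on DR. Filled points passed the adjusted p and fold limits. Hmgb2 is filled in both panels of 22 weeks, Cdkn2c on AL and Lmnb2 on DR, while Cdkn1a (top line) is filled in all 3.

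Hmgb2 (ENSMUSG00000054717, chromosome 8 of GRCm39, 57964687 to 57969276, plus strand) encodes the HMGB protein most tied to dividing cells. At 6 weeks the 5 WT mice had 7.59, 7.63, 8.00, 8.52 and 9.82 CPM and the 5 Ercc1 d/- mice 10.4, 11.6, 12.1, 12.8 and 19.5 CPM. Every Ercc1 d/- mouse was above every WT mouse, yet the log2 fold change of 0.62 (SE 0.19) did not pass (edgeR adjusted p = 0.106, 0.0691 to 0.759 over the alternatives and with 1 library left out at a time). At 22 weeks on AL the 4 WT mice had 8.13, 9.05, 10.4 and 12.1 CPM and the 4 Ercc1 d/- mice 14.4, 16.2, 16.3 and 16.9 CPM. Again the groups did not overlap, and the log2 fold change was 0.75 (SE 0.20, 95% confidence interval 0.34 to 1.16, edgeR adjusted p = 0.0143). That call was lost without sample 004 (log2 fold change 0.71, edgeR adjusted p = 0.0523) or sample 018 (0.64, edgeR adjusted p = 0.0969). Sample 018 was the only female among the 4 WT mice, so without it that group was all male. On DR the 5 WT mice had 8.71, 9.74, 9.85, 10.8 and 14.3 CPM, and the 5 Ercc1 d/- mice 17.1, 21.7, 22.4, 24.1 and 35.2 CPM. The lowest Ercc1 d/- mouse was above the highest WT mouse, and the log2 fold change was 1.19 (SE 0.19, interval 0.81 to 1.58, edgeR adjusted p = 0.000106). The highest value came from sample 016, without which the change was 1.01 (adjusted p = 0.000603).

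In order of their means, Hmgb2 stood at 8.31 ± 0.923 CPM in WT at 6 weeks, 9.93 ± 1.74 in WT at 22 weeks on AL, 10.7 ± 2.16 in WT on DR, 13.3 ± 3.60 in Ercc1 d/- at 6 weeks, 15.9 ± 1.07 in Ercc1 d/- at 22 weeks on AL and 24.1 ± 6.72 in Ercc1 d/- on DR. Neighbours in this order overlapped, except the last pair, whose ranges were 14.4 to 16.9 and 17.1 to 35.2 CPM. The DR effect in Ercc1 d/- mice between that pair was 0.60 on the log2 scale (SE 0.21) and did not pass (edgeR adjusted p = 0.143). The genotype effect on DR minus that on AL was 0.51 (SE 0.28, interval -0.07 to 1.09, edgeR adjusted p = 0.642), so a larger effect on DR was not shown. Sample 003 had 0 Hmgb2 counts, which allows up to 8.17 CPM at its depth.

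Hmgb1 (ENSMUSG00000066551), the HMGB gene that most cells express, had means between 184 ± 14.9 CPM (Ercc1 d/-, 22 weeks, AL) and 198 ± 13.5 CPM (WT, 22 weeks, AL). All 28 mice lay between 165 and 214 CPM, and the groups overlapped throughout. Its log2 fold changes by genotype were 0.08, -0.10 and -0.01 at 6 weeks, on AL and on DR, with SEs of 0.08 to 0.09. The interval on DR was -0.18 to 0.17, which is 0.881-fold to 1.12-fold. Hmgb1 has 14 gene models named after it, which took 562 counts over the 28 mice against 19846 for Hmgb1 itself, so the division of reads between them is uncertain.

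Lmnb1 (ENSMUSG00000024590) and Lmnb2 (ENSMUSG00000062075, chromosome 10, 80737037 to 80754110, minus strand) encode the B-type lamins. Lmnb1 at 6 weeks was at 5.42, 5.45, 5.63, 6.97 and 9.49 CPM in WT mice and at 8.55, 9.00, 12.4, 12.7 and 13.6 CPM in Ercc1 d/- mice. Of the WT mice, 4 lay below every Ercc1 d/- mouse. The log2 fold change of 0.62 (SE 0.22, unadjusted p = 0.00939) did not pass over all genes (edgeR adjusted p = 0.186). At 22 weeks on AL the values were 4.21, 6.39, 6.88 and 6.96 CPM in WT and 5.40, 9.09, 9.55 and 12.3 CPM in Ercc1 d/- mice, a log2 fold change of 0.53 (SE 0.25, edgeR adjusted p = 0.192). On DR the WT mice had 4.17, 4.77, 4.95, 6.18 and 6.70 CPM and the Ercc1 d/- mice 3.91, 5.11, 8.28, 11.8 and 13.0 CPM. The Ercc1 d/- mice spread more widely and overlapped the WT range at its low end. The log2 fold change was 0.73 (SE 0.27, edgeR adjusted p = 0.0754), and without sample 016, the lowest of them, it was 0.86 and passed (adjusted p = 0.0379). The levels rest on few reads, 5 to 86 counts per library. Lmnb1 was thus called in none of the comparisons with all libraries, and the 3 intervals by genotype (0.17 to 1.08, 0.00 to 1.05 and 0.18 to 1.28) had no lower limit under 0.

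Lmnb2 differed in its order. On DR the WT mice had 22.1, 22.3, 22.6, 22.8 and 24.8 CPM and the Ercc1 d/- mice 9.58, 13.9, 16.7, 17.1 and 18.2 CPM. No Ercc1 d/- mouse reached the WT range, and Lmnb2 was called lower (log2 fold change -0.57, SE 0.15, interval -0.88 to -0.27, edgeR adjusted p = 0.0110). The lowest value, from sample 006, rested on 15 counts, and leaving out 1 library at a time gave changes between -0.64 and -0.44 that all passed (adjusted p 0.00985 to 0.0461). On AL the groups overlapped at 22 weeks, with 19.8 ± 1.55 CPM in WT (n = 4) and 19.6 ± 2.2 in Ercc1 d/- mice (n = 4), a log2 fold change of -0.05 (SE 0.15, edgeR adjusted p = 0.862). They overlapped at 6 weeks as well, at 18.4 ± 3.11 and 18.0 ± 1.08 CPM (n = 5 each). The genotype effect on DR minus that on AL was -0.52 (SE 0.21, unadjusted p = 0.0244, edgeR adjusted p = 0.498). Neither DR effect passed, 0.19 (SE 0.13) in WT and -0.33 (SE 0.17) in Ercc1 d/- mice, so the difference from WT on DR was not shown to differ from that on AL. In WT mice the ranges on AL (18.1 to 21.8 CPM) and on DR (22.1 to 24.8 CPM) did not overlap. In Ercc1 d/- mice those ranges (17.6 to 22.7 and 9.58 to 18.2 CPM) did overlap.

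Cdkn2c (ENSMUSG00000028551, chromosome 4, 109517957 to 109524386, minus strand) encodes the INK4 protein made in many developing and dividing cells. At 22 weeks on AL it was at 6.38, 7.19, 8.76 and 10.0 CPM in WT mice and at 9.46, 15.9, 16.2 and 16.8 CPM in Ercc1 d/- mice. Of the Ercc1 d/- mice, 3 were above every WT mouse and sample 026 lay within the WT range. The log2 fold change was 0.92 (SE 0.24, interval 0.42 to 1.42, edgeR adjusted p = 0.0135). The call was lost without sample 004 (0.86, edgeR adjusted p = 0.0540), 005 (0.83, edgeR adjusted p = 0.0563) or 018 (0.74, edgeR adjusted p = 0.102). Sample 018 was the only female among the 4 WT mice. The call was also lost with sample 003 added (0.78, edgeR adjusted p = 0.0640), which stood at 21.8 CPM from 8 counts. At 6 weeks the WT mice had 9.43 to 14.5 CPM and the Ercc1 d/- mice 11.4 to 24.2 CPM, a log2 fold change of 0.51 (SE 0.21, edgeR adjusted p = 0.268). On DR WT had 8.35 to 19.1 CPM and Ercc1 d/- 9.26 to 15.3 CPM, and the change was -0.02 (SE 0.25, interval -0.53 to 0.50). The genotype effect on DR minus that on AL was -0.80 (SE 0.36, unadjusted p = 0.0351, edgeR adjusted p = 0.527), so the effects on the 2 diets were not shown to differ.

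Cdkn2d (ENSMUSG00000096472), another INK4 gene, had group means between 12.2 ± 2.62 CPM (WT, 6 weeks) and 15.3 ± 1.92 CPM (WT, DR). Its log2 fold changes by genotype were 0.17, -0.11 and -0.12 with SEs of 0.19 to 0.22, and no comparison had an unadjusted p under 0.05. The interval of the genotype effect on AL was -0.56 to 0.35, wide enough to hold a 1.2-fold change in either direction.

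Cdkn1b (ENSMUSG00000003031), which holds many resting cells out of the cycle, had group means from 102 ± 12.0 CPM (WT, 22 weeks, AL) to 120.1 ± 20.3 CPM (Ercc1 d/-, DR). The log2 fold changes by genotype were 0.07, 0.04 and 0.10 with intervals of -0.14 to 0.27, -0.19 to 0.27 and -0.10 to 0.29. Cdkn1c (ENSMUSG00000037664), an imprinted inhibitor expressed from the maternal copy, had means of 44.8 ± 12.9 CPM in WT and 43.2 ± 13.1 CPM in Ercc1 d/- mice at 6 weeks (n = 5 each). At 22 weeks on AL they were 53.4 ± 4.65 and 60.3 ± 14.9 CPM (n = 4 each), and on DR 66.1 ± 5.96 and 55.7 ± 8.69 CPM (n = 5 each). The DR ranges, 59.1 to 74.1 CPM in WT and 42.2 to 63.2 in Ercc1 d/- mice, overlapped, and the log2 fold change of -0.26 (SE 0.12, unadjusted p = 0.0366) did not pass (edgeR adjusted p = 0.157).

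Cdkn1a, the CIP/KIP inhibitor induced by the p53 protein, gives the scale of these values. It stood at 45.0 ± 6.92 CPM in WT and 105 ± 13.5 CPM in Ercc1 d/- mice at 6 weeks, at 45.5 ± 10.4 and 182 ± 20.6 CPM at 22 weeks on AL and at 48.0 ± 11.2 and 193 ± 27.8 CPM on DR. The 3 genotype effects were 1.19, 2.02 and 2.02 on the log2 scale (SE 0.13, 0.15 and 0.16), all called (edgeR adjusted p of at most 3.54e-05). None of the 8 tested genes came as far as Cdkn1a in any of the 3.

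Cdkn2a (ENSMUSG00000044303, chromosome 4, 89192708 to 89212890) is the gene most often read as a sign of senescence, and Ink4a and Arf transcripts are summed in its counts. It had 13 reads in all, in 7 of the 28 libraries, and never more than 3 in one. WT mice had 0 in all 5 at 6 weeks, 2 and 1 in samples 018 and 025 at 22 weeks on AL (0 in the other 2), and 1 in sample 007 on DR (0 in the other 4). Ercc1 d/- mice had 2 in sample 015 at 6 weeks (0 in the other 4), 2 each in samples 004 and 005 at 22 weeks on AL (0 in the other 2), and 3 in sample 016 on DR (0 in the other 4). Summed over a group and divided by its depth, WT mice had 0.00, 0.116 and 0.0438 CPM at 6 weeks, on AL and on DR, with exact Poisson 95% intervals of 0.00 to 0.189, 0.0240 to 0.340 and 0.00111 to 0.244. Ercc1 d/- mice had 0.128, 0.385 and 0.346 CPM, with intervals of 0.0155 to 0.462, 0.105 to 0.986 and 0.0713 to 1.01. The intervals cover counting error only, and those of WT and Ercc1 d/- overlap at each age and diet. Pooled over ages and diets, WT mice had 4 reads (0.0587 CPM, interval 0.016 to 0.15) and Ercc1 d/- mice 9 (0.259 CPM, 0.119 to 0.492). These intervals also overlap and cover counting error only. In a library, a count of 0 allows up to 3 counts, which is 0.309 to 3.27 CPM across the 28 libraries. A small difference in Cdkn2a was thus not detectable at this depth.

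Cdkn2b (ENSMUSG00000073802, chromosome 4, 89223204 to 89229276), the neighbour of Cdkn2a, had 298 reads in 27 of 28 libraries and more than 10 in 8 of them. The 8 were all WT libraries, 2 at 6 weeks and 6 at 22 weeks, with at least 3903589 gene counts each. In CPM, WT mice had 0.775 to 5.45 at 6 weeks, 0.928 to 5.00 on AL and 2.28 to 5.30 on DR, and Ercc1 d/- mice 0.758 to 2.65, 1.96 to 7.58 and 0.00 to 4.47. The groups overlapped in every comparison. Summed over a group as for Cdkn2a, Cdkn2b had 4.12 CPM in WT and 1.85 in Ercc1 d/- mice on DR. Their exact Poisson intervals, 3.33 to 5.04 and 1.05 to 3.0, did not overlap. At 6 weeks (1.81 to 3.26 and 1.03 to 2.36) and on AL (2.53 to 3.94 and 2.19 to 4.46) they did. The intervals cover counting error only, not the spread between mice. Without the filter on low counts, the change on DR was -1.19 on the log2 scale (SE 0.47, edgeR adjusted p = 0.133). Both genes were compared by exact two-sided permutation tests of the mean CPM, 14 tests in all for 7 comparisons. The smallest p was 0.0794, for Cdkn2b with age in Ercc1 d/- mice (1.61 ± 0.758 at 6 weeks, n = 5, against 4.04 ± 2.52 at 22 weeks, n = 4), and it was 0.777 after adjustment over the 14 exact tests. For Cdkn2a the exact p-values ran from 0.333 to 1.00. For Cdkn2b the exact test allowed p-values down to 0.00794 with 5 mice against 5, 0.0159 with 4 against 5 and 0.0286 with 4 against 4. Cdkn2a had reads in 1 to 4 of the libraries compared. Its smallest exact p was 1.00 for genotype at 6 weeks, 0.0286 on AL and 0.444 on DR. It was 0.333 for age in WT and 0.0952 in the other 3. Before adjustment, all but the test on AL were thus unable to pass. After adjustment over the 14 exact tests, no test of either gene could pass on its own, even at its smallest p. These tests therefore cannot decide whether Cdkn2a or Cdkn2b differed.

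**Figure D3:**
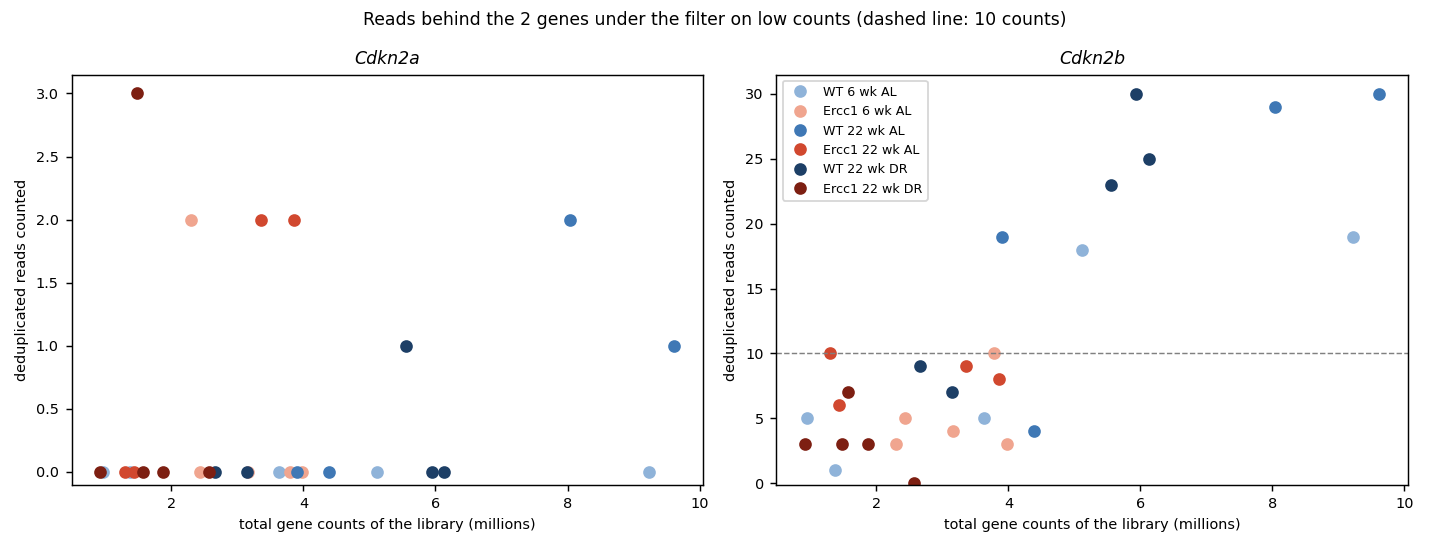
Reads counted on Cdkn2a (left) and Cdkn2b (right) in each of the 28 libraries against the gene counts of the library, coloured by group. Cdkn2a lies between 0 and 3 reads at every depth, and the 8 libraries over 10 Cdkn2b reads (dashed line) are all WT.

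The next question is what changed between 6 and 22 weeks on AL. In WT mice 0 of 8 genes were called (edgeR and DESeq2) against 0.235% of all genes, and in Ercc1 d/- mice 0 of 8 (edgeR and DESeq2) against 4.66%. At an unadjusted p under 0.05 there was 1 gene in each. Cdkn2c in WT mice went from 12.3 ± 2.17 to 8.09 ± 1.62 CPM, a log2 fold change of -0.55 (SE 0.22, edgeR adjusted p = 0.435). Cdkn1c in Ercc1 d/- mice went from 43.2 ± 13.1 to 60.3 ± 14.9 CPM, a log2 fold change of 0.49 (SE 0.22, edgeR adjusted p = 0.259). Cdkn1a was called higher with age in Ercc1 d/- mice (0.80, SE 0.13, edgeR adjusted p = 0.000613) and stood at -0.03 (SE 0.14) in WT mice. The difference between its age effects was 0.83 (SE 0.20, edgeR adjusted p = 0.0458). For the 8 genes, the genotype effect at 22 weeks minus that at 6 weeks was called in 0 of 8 (edgeR and DESeq2) against 0.842% of all genes, and none of the 8 had an unadjusted p under 0.05. These differences ran from -0.27 (Cdkn2d, SE 0.29) to 0.41 (Cdkn2c, SE 0.32).

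The last comparison asks what DR did at 22 weeks. It called 0 of 8 genes in WT mice (edgeR and DESeq2) against 1.30% of all genes, and 0 of 8 in Ercc1 d/- mice (edgeR and DESeq2) against 1.64%. In WT mice 2 genes had an unadjusted p under 0.05. Cdkn1c went from 53.4 ± 4.65 to 66.1 ± 5.96 CPM on DR, a log2 fold change of 0.32 (SE 0.12, edgeR adjusted p = 0.200), and its ranges of 49.4 to 60.0 and 59.1 to 74.1 CPM overlapped by a little. Cdkn2c went from 8.09 ± 1.62 to 11.9 ± 4.8 CPM, where samples 017 and 021 at 19.1 and 14.6 CPM stood above the others on DR at 8.35 to 8.75 CPM (log2 fold change 0.52, SE 0.23, edgeR adjusted p = 0.316). In Ercc1 d/- mice Hmgb2 was the gene with such a p, as given above. The genotype effect on DR minus that on AL was called in 0 of 8 genes (edgeR and DESeq2) against 0.0971% of all genes. It had an unadjusted p under 0.05 in 3 of them, Cdkn2c, Lmnb2 and Cdkn1c (-0.44, SE 0.18, edgeR adjusted p = 0.471). The AL groups of 22 weeks enter both the age and the diet comparisons.

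Of 28 listed genes that copy DNA or serve mitosis, 15 could be tested, and a few were called higher in Ercc1 d/- aortas while most did not pass. At 6 weeks 3 were called higher and 0 lower, at 22 weeks on AL 3 and 0, and on DR 4 and 0, where 0.575%, 5.87% and 5.93% of all genes were called higher, with median log2 fold changes of 0.32, 0.39 and 0.41 against 0.02, 0.03 and 0.00 over all genes. Top2a, which untangles replicated DNA, was called in all 3 comparisons (1.80, SE 0.36, 1.72, SE 0.40, and 2.34, SE 0.50). Its levels were low, 2.54 ± 1.06 CPM in WT and 9.32 ± 5.86 CPM in Ercc1 d/- mice at 6 weeks and 0.788 ± 0.389 and 3.94 ± 2.90 CPM on DR. Mki67, a protein of dividing cells, was called at 6 weeks (2.35, SE 0.48) and on DR (2.51, SE 0.60). Cdc20, an activator of the anaphase complex, was called in the same comparisons (1.71, SE 0.41, and 1.26, SE 0.39). Mcm5, part of the replicative helicase, was called higher on AL at 22 weeks (1.00, SE 0.24) and lower with DR in Ercc1 d/- mice (-0.92, SE 0.24), where 0 of the 15 were called higher.

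**Figure D4:**
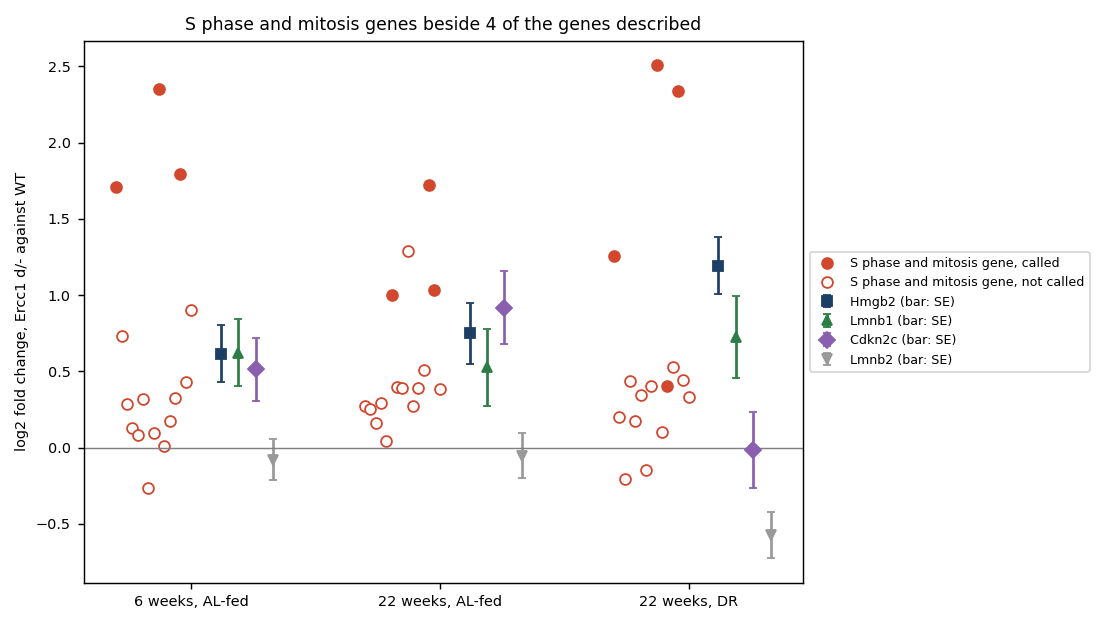
Log2 fold change, Ercc1 d/- against WT, of the 15 tested S phase and mitosis genes (circles, filled where called) beside Hmgb2, Lmnb1, Cdkn2c and Lmnb2 (with their SE) in the 3 genotype comparisons. Called circles are all above 0, Hmgb2 lies at 0.62, 0.75 and 1.19, and Lmnb2 falls to -0.57 on DR.

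The kinases and cyclins that INK4 proteins act on changed in few members. Of 10 tested D-type cyclins, kinases and RB family genes, 1 was called higher on AL at 22 weeks, and 1 higher and 1 lower on DR, which is 10.0% and 20.0% of the list against 12.0% and 13.0% of all genes. Ccnd1, a D-type cyclin, was at 23.5 ± 4.66 CPM in WT and 40.8 ± 14.2 in Ercc1 d/- mice on AL (log2 fold change 0.91, SE 0.23) and at 13.1 ± 2.13 and 29.3 ± 5.07 CPM on DR (1.16, SE 0.21). With DR in WT mice Ccnd1 fell by 0.82 (SE 0.19) and Ccnd2 by 0.49 (SE 0.12) on the log2 scale. Cdk6, a kinase that INK4 proteins bind, was lower on DR by genotype (-0.67, SE 0.14) and with age in Ercc1 d/- mice (-0.57, SE 0.15). Between 6 and 22 weeks on AL it went from 28.1 ± 3.8 to 18.9 ± 3.57 CPM in Ercc1 d/- mice. In WT mice Cdk6 also went down, from 27.2 ± 2.29 to 20.3 ± 2.03 CPM, but was not called. Among 7 tested E2F factors and partners, E2f5 was called lower on DR (-0.75, SE 0.22), which is 14.3% of the list against 13.0% of all genes.

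Of 22 tested regulators of inhibitor genes, 1 was called higher and 2 lower by genotype on DR, a share of 13.6% against 13.0% of all genes. Id2, a repressor partner of helix-loop-helix factors, fell from 94.9 ± 7.87 to 57.9 ± 15.7 CPM (-0.70, SE 0.14), Ets2, a factor known to activate Cdkn2a, was at -0.35 (SE 0.09), and Foxo3, which is known to drive Cdkn1b, was at 0.49 (SE 0.13). Mtap, a neighbour of Cdkn2a and Cdkn2b on chromosome 4, went from 52.3 ± 5.23 CPM in WT to 35.3 ± 6.07 CPM in Ercc1 d/- mice on DR (-0.55, SE 0.11), and fell with DR in Ercc1 d/- mice (-0.49, SE 0.12), as did Cd81, in the imprinted region of Cdkn1c (-0.37, SE 0.08). In that imprinted region, the antisense RNA Kcnq1ot1 was called higher by genotype on DR (0.45, SE 0.15). Each of these comparisons called 2 of 5 tested neighbours (40.0%, against 13.0% of all genes by genotype on DR and 1.64% with DR in Ercc1 d/- mice).

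Of 24 tested genes of the nuclear lamina and envelope, 2 were called lower on AL at 22 weeks and 1 lower on DR, which is 8.33% and 4.17% against 12.0% and 13.0% of all genes. The medians over the 24 were -0.13 and -0.13. Emd (emerin, -0.53, SE 0.13) and Syne2 (a nesprin, -0.56, SE 0.16) were the ones on AL. Lmna, the A-type lamin gene, was at 686 ± 83.6 CPM in WT and 509 ± 21.0 in Ercc1 d/- mice on DR (-0.42, SE 0.09), the comparison in which Lmnb2 was lower too. Of 7 other HMG genes tested, Hmga1b, whose reads cannot be cleanly divided from its near copy Hmga1, was higher on AL (1.41, SE 0.40) and Hmgn5 on DR (0.40, SE 0.12). Each is 14.3% of that list, against 12.0% and 13.0% of all genes. Of 7 receptors and partners of extracellular HMGB1, Myd88 and Cxcl12 were higher on AL (0.47, SE 0.13, and 0.47, SE 0.14) and Cxcl12 was lower with DR in Ercc1 d/- mice (-0.45, SE 0.11). These are 28.6% of the list against 12.0% of all genes on AL, and 14.3% against 1.64% with DR in Ercc1 d/- mice.

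Of 23 tested secreted and surface genes of senescent cells, a count that includes Cdkn1a, 2 were higher at 6 weeks (8.70% against 1.71% of all genes), 8 on AL at 22 weeks (34.8% against 12.0%), and 3 higher and 3 lower on DR (26.1% against 13.0%). With age in Ercc1 d/- mice 8 were higher (34.8% against 4.66%), and with DR in Ercc1 d/- mice 9 were lower (39.1% against 1.64%). Spp1 (osteopontin, 5.48, SE 0.49) and Mmp3 (a matrix protease, 2.56, SE 0.21) were among those higher on AL, and with DR in Ercc1 d/- mice they fell by 2.91 (SE 0.27) and 1.37 (SE 0.22) on the log2 scale. Cdkn1a did not fall with DR in Ercc1 d/- mice (0.10, SE 0.16, not called). In the same comparison 4 of 8 macrophage markers were called lower, against 0.996% of all genes (median log2 fold change of the 8, -0.70). The part of cell composition in these falls was not tested.

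Some markers of several cell types were called by genotype. Of all genes, 5.87% were called higher and 6.16% lower at 22 weeks on AL, and 5.93% and 7.03% on DR. At 6 weeks 0.575% were called higher and 1.13% lower. The 7 smooth muscle markers, all detected in every group, summed to 31794 to 38097 CPM in WT and 16715 to 25955 CPM in Ercc1 d/- mice at 22 weeks on AL, and to 32961 to 42876 and 23414 to 25291 CPM on DR. Of these 7 markers, 5 were called lower on AL and 6 on DR. The 8 macrophage markers, also all detected, summed to 256 to 377 and 555 to 1014 CPM on AL, to 165 to 320 and 373 to 1197 CPM on DR, and to 204 to 246 and 253 to 641 CPM at 6 weeks. Of these 8 markers, 6 were called higher on AL, 4 on DR and 1 at 6 weeks. Hmgb2 and the macrophage sum were both highest in sample 016. In the other Ercc1 d/- mice on DR, the macrophage sum was 373 to 479 CPM (555 to 1014 on AL). Hmgb2 was at 17.1 to 24.1 CPM in them (14.4 to 16.9 on AL). The summed endothelial markers of all Ercc1 d/- mice had a median of 1179.6 CPM on DR and 811.3 CPM on AL. Endothelial markers (7, all detected) summed to 428 to 910 CPM in WT and 838 to 1427 in Ercc1 d/- mice on DR, with 3 called higher, and to 787 to 1156 and 636 to 1078 on AL, with 1 called higher. Heart muscle markers (7, of which 4 were tested) summed to 88.4 to 168.5 and 204.1 to 550.4 CPM on DR and to 88.5 to 214.4 and 167.5 to 343.2 on AL, with 1 called higher in each. The median log2 fold change of these 4 was 1.67 on DR and -0.53 on AL. Of 7 adventitial fibroblast markers, 2 were called lower on AL, and 1 higher and 2 lower on DR. Among 4 tested Schwann cell and neuron markers, 1 was called higher on AL. The part of cell composition in the results on Hmgb2, Cdkn2c and Lmnb2 was not tested. T cell and thymocyte markers, which would show thymus in the dissected arch, summed in the 28 mice to at most 8.84 CPM outside sample 001 (19.7), and B cell markers to at most 7.59 CPM outside sample 016 (15.6).

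**Figure D5:**
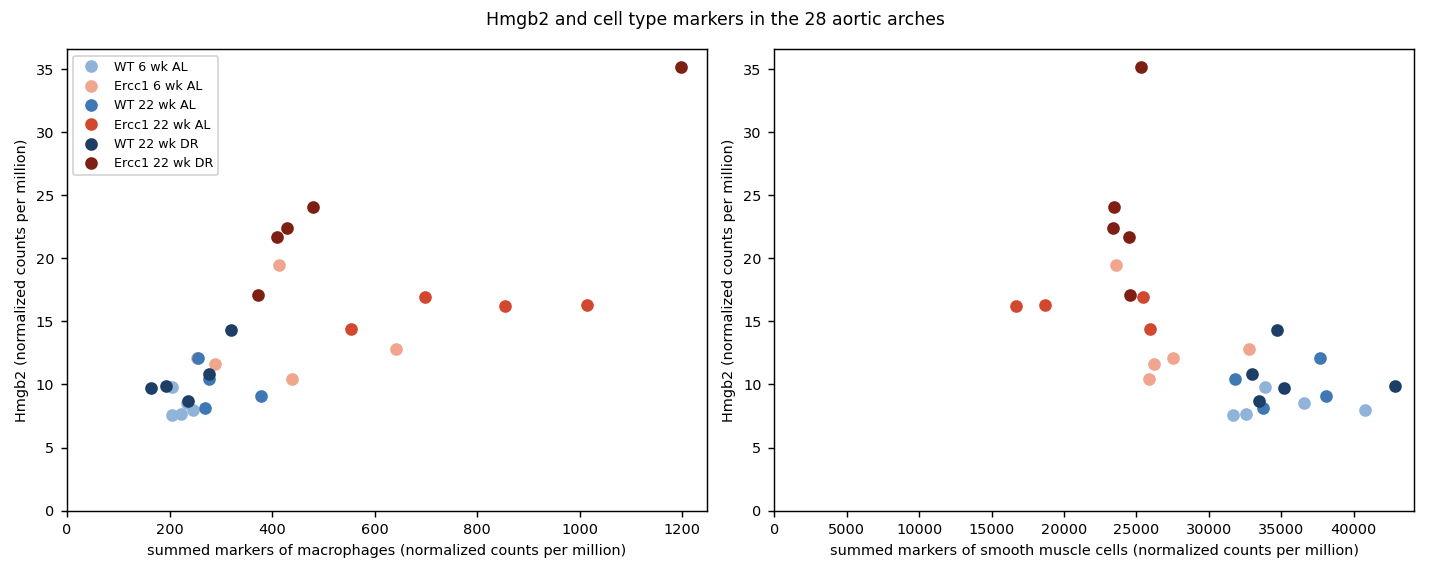
Hmgb2 in each of the 28 mice against the summed level of 8 macrophage markers (left) and 7 smooth muscle markers (right), all in normalized CPM and coloured by group. Sample 016, at 35.2 CPM of Hmgb2, is highest on both axes of the left panel, and the other Ercc1 d/- mice on DR lie above and to the left of those on AL. The part of cell composition was not tested.

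The genes whose levels ran most like those of a called gene over the 28 mice are given as a description, since the mice share groups and depth. For Hmgb2 they were Slc43a2, Cdc42bpg and Cyp2b10 (Spearman rho 0.859, 0.857 and 0.839), for Cdkn2c Ide, Tlcd1 and Tspan12 (0.715, 0.707 and 0.697), and for Lmnb2 Ppp1r18, Kif3c and Klhl8 (0.793, 0.743 and 0.725).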

How the data were processed

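Aortic arch RNA of 29 mice was sequenced after a strand-specific library preparation. According to the methods, the authors collapsed duplicates by unique molecular identifiers (UMI-tools 1.1.2), aligned reads with STAR 2.7.10a to GRCm39 and deposited raw gene counts from HTSeq 2.0.2, which are whole numbers without normalization. The strand setting of the counting is not given in the sources used here, so reads of a gene and of an overlapping gene on the other strand are not certain to be apart. The 5 summary lines of unassigned reads (no feature 7.27 to 10.1% of assigned and unassigned reads together, ambiguous 1.40 to 1.82%, not unique 3.66 to 7.06%) were left out of library sizes.

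Of the 28 samples, more than 10 had to exceed a count of 10 for a gene to be tested with edgeR 4.0.16 (R 4.3.3), by its quasi-likelihood test on TMM factors, adjusted for sex, in place of the DESeq2 of the study. The AL samples (18) were fitted together for genotype and age, and the 22-week samples (18) for DR and genotype on DR. Cdkn2a and Cdkn2b, under the filter, were compared by exact permutation tests, and their intervals cover counting error only. Labels give each sample as a separate mouse. Exon lengths and gene positions are those of a GENCODE release on GRCm39 that is later than the annotation of the authors, and promoter windows from RefSeq on GRCm38.p6. The edgeR script was tested on simulated data.

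The 10 genes, the other lists and the alternatives were chosen with earlier results of these data known. Named list genes are called ones, at most the 4 with the smallest p per list and comparison, beside Cdkn1a, Ercc1 and the 3 genes most like each called gene. The alternatives were DESeq2 1.42.0, RLE size factors, no filter, sample 003 added, no sex term, all groups in 1 fit, thinning to 921167 counts, and each replicate left out. The earlier edgeR dispersion, the removal of 6 libraries under 1500000 counts and the removal of samples 001 and 016 were chosen after seeing the data.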

Additional observations from a re-analysis of the deposited data

Results flagged for a closer look

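Among 59 groups of 4 or 5 values, 7 held a sample whose gap to the nearest other was large for the range of its group by Dixon's limit. Chance flags about 1 in 20 groups of normally distributed values. A group with reads in 1 sample only is always flagged, whatever that sample holds. The flags in Cdkn2a were all of this kind. They fell on 015 at 0.880 CPM (Ercc1 d/-, 6 weeks), 007 at 0.181 CPM (WT, DR) and 016 at 1.95 CPM (Ercc1 d/-, DR), from 2, 1 and 3 counts. Cdkn2c was lowest in sample 026 at 9.46 CPM against 15.9 to 16.8 in the other Ercc1 d/- mice at 22 weeks on AL. Hmgb2 was highest in sample 027 at 19.5 CPM against 10.4 to 12.8 in the other Ercc1 d/- mice at 6 weeks. Among WT mice on DR, Cdkn1b was lowest in sample 021 at 90.2 CPM against 114 to 120, and Lmnb2 was highest in sample 010 at 24.8 CPM against 22.1 to 22.8.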

How the results depend on the processing

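Of 1519 log2 fold changes of the genes under the alternatives, 1424 kept their direction and side of the threshold, 10 lost the call, 2 gained it, and 83 uncalled ones changed sign. The 2 genes called at 22 weeks on AL became 1 with sample 003 added and 0 after thinning to 921167 counts, and leaving out 1 replicate gave 0 to 2. The 2 genes called on DR became 0 after thinning, and leaving out 1 replicate gave 2 to 3. Of all genes, 1163 were called on AL with sample 003 added. Thinning left 293 on AL and 288 on DR, and leaving out 1 replicate gave 934 to 1437 and 1170 to 1593. After thinning, Cdkn2c on AL was at 0.49 (SE 0.79), Hmgb2 at 0.68 on AL and 1.1 on DR, and Lmnb2 at -0.70 on DR, with adjusted p of 0.858, 0.677, 0.312 and 0.496, at a fraction of the reads. The counts of all genes called moved by more than 1.5 times, from 211 to between 29 and 378 at 6 weeks, from 1486 to between 293 and 1685 on AL, from 1601 to between 288 and 1755 on DR, from 29 to between 8 and 106 for age in WT, from 576 to between 112 and 748 for age in Ercc1 d/-, from 161 to between 46 and 310 for DR in WT, from 203 to between 12 and 348 for DR in Ercc1 d/-, from 104 to between 18 and 197 for genotype by age and from 12 to between 2 and 43 for genotype by diet. The cause was not tested beyond thinning itself, which removes reads. No paired analysis was possible because each mouse gave 1 sample and the groups share no replicate numbers. Depth limits Cdkn2a and Cdkn2b most.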
